A study of Mus musculus with 19 samples.

Results

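Leptomeningeal and perivascular fibroblasts were followed through 10 of their marker genes, among the 24394 genes measured in blocks of mouse brain. The markers were listed by name, and each was read from the tables of the WT and the KO mice: Dcn, Lum, Fmod, Ogn, Bgn, Slc6a13, Slc22a6, Ptgds, Igf2 and Igfbp2. The question for the 4 groups of mice was how much meningeal signal each library held, and whether it moved with genotype or with electroshock.

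The leptomeninges are the thin inner membranes on the surface of the brain, and their fibroblasts lay down a collagenous matrix and form part of the barrier between cerebrospinal fluid and blood. Fibroblasts of the same kind follow the larger vessels into the tissue. A block of cortex carries some of this membrane along, so the markers tell how much of it came with the neural tissue, although several are also made elsewhere in the brain: Ptgds in oligodendrocytes and choroid plexus, Igf2 in choroid plexus and Igfbp2 in astrocytes and choroid plexus. In bulk RNA, fewer cells of a type and less RNA per cell cannot be told apart.

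RNA-seq was performed on a block of hippocampus and cortex from 1 hemisphere of 19 male mice of the C57BL/6NJ strain, with 1 library per mouse, taken 20 h into the light cycle (ZT20, in the dark phase). The KO MEST group (n = 5, 18.9 to 19.4 weeks old) lacked Fabp7, the brain fatty acid binding protein of astrocytes, and received daily electroshocks through ear clips, from 20 mA in steps of 2 mA, until the maximal electroshock seizure threshold (MEST), when the hind limbs extended. WT MEST mice (n = 5, 17.4 to 18.0 weeks) were shocked likewise, and KO sham (n = 4, 17.3 to 17.9 weeks) and WT sham mice (n = 5, 15.9 to 16.3 weeks) were handled without a shock. In every comparison the tested mice were also older, so that age and group cannot be told apart, and the number of shocks each MEST mouse received was not given in the sources used here.

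Values are given as CPM, the reads of a gene scaled to a common total of reads in genes of the same library. The libraries held 27.6 to 51.7 M reads in genes, with WT sham the least deep at 27.6 to 32.3 M. Fabp7 averaged 0.0431 ± 0.0392 CPM in KO MEST and 14.8 ± 2.04 CPM in WT MEST mice, and 0.126 ± 0.0618 CPM in KO sham and 13.1 ± 1.79 CPM in WT sham mice (SD), which fits the genotype labels. The WT sham libraries stood apart from all others on the first principal component of all genes, at 20.5 to 31.0 against values below 0 in the other 14 libraries, and every comparison with WT sham carries that separation. Neural tissue was present, since 8 neuron genes summed to 10291 to 11356 CPM in each library. The 10 fibroblast markers summed to 641 to 1064 CPM. The neuron sums do not tell which regions the block held. The least covered marker in any library, Lum, still had 93 reads.

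Of the 10 markers, all but Dcn and Lum have a promoter in the set of RefSeq promoters used here (GRCm38.p6). Those of the 4 markers that passed a test in some comparison are shown, since the calls described below rest on these genes, each from 250 bases before to 50 bases after the most upstream start, 5′ to 3′ on the strand of the gene. They are the promoters of Igf2 (chr7:142666767-142667066, minus strand), Slc6a13 (chr6:121300038-121300337, plus strand), Bgn (chrX:73483351-73483650, plus strand) and Igfbp2 (chr1:72824230-72824529, plus strand). Capitals mark GC boxes (GGGCGG on either strand).
Igf2: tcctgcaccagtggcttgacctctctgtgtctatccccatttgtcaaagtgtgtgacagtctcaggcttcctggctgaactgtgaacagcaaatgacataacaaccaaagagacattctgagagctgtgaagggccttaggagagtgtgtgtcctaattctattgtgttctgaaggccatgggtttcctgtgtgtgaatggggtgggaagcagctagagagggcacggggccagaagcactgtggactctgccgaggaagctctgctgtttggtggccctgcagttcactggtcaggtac
Slc6a13: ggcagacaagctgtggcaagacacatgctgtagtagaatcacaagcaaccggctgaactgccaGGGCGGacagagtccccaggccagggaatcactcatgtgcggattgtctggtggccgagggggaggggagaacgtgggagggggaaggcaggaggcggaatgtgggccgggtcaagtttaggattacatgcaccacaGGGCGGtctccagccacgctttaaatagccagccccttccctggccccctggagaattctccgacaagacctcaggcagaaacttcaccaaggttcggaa
Bgn: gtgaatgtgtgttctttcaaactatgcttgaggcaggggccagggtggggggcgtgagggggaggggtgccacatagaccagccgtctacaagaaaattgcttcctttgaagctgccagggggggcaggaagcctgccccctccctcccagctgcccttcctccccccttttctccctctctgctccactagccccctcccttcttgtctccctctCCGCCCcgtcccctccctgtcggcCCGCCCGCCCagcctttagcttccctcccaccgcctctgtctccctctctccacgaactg
Igfbp2: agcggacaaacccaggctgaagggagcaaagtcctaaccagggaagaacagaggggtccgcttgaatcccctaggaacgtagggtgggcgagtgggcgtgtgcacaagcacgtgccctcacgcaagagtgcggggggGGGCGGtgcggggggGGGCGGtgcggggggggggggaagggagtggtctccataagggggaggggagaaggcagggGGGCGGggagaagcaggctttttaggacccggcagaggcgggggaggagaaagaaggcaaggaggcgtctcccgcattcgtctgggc

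The 4 windows were also searched on both strands for a TATA box (TATAAA), a forkhead core (TAAACA), an AP-1 site (TGANTCA) and a cyclic AMP response element (TGACGTCA), and none of these was found. GC boxes were found 3 times in the window of Bgn (34, 10 and 6 bases before the start, the last pair overlapping), 2 times in that of Slc6a13 and 3 times in that of Igfbp2, and not in that of Igf2. Over all 32851 promoters of the same length, 35.7% hold a GC box, 13.6% a TATA box, 13.4% the forkhead core, 7.81% the AP-1 site and 1.79% the cyclic AMP response element. CpG dinucleotides numbered 18 in the window of Igfbp2, 11 in Slc6a13, 9 in Bgn and 2 in Igf2, against a median of 7 over all promoters. The promoter set used here lists 4 start sites for Igf2, 3 for Slc6a13, 2 for Igfbp2 and 1 for Bgn, and the reads per gene do not tell which was used.

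Per kb of exon, Ptgds was the highest of the markers, at 339 ± 54.9 CPM per kb (SD over the 19 libraries). Igfbp2 (19.7 ± 2.87 CPM per kb) and Igf2 (16.0 ± 3.66) followed, and these neighbours lay within their spread of each other. A middle set ran from Fmod (5.62 ± 1.02) through Dcn (4.91 ± 1.12), Ogn (4.21 ± 1.09) and Slc6a13 (3.28 ± 0.647) to Bgn (3.03 ± 0.351), in which no gene was further from the next than their SDs. Lum (1.90 ± 0.341) and Slc22a6 (1.40 ± 0.286 CPM per kb) were the lowest and again within their spread. Exon lengths are the union of all annotated exons, so that genes with many rare exons read low on this scale.

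Between libraries, each marker varied within narrow limits. The highest library held 2.72 times the CPM of the lowest for Dcn, the widest range of the markers, and Bgn had the narrowest. The highest value of 6 markers, Fmod, Ogn, Slc6a13, Slc22a6, Ptgds and Igf2, was found in WT sham mouse 4. The highest value of the other 4, Dcn, Lum, Bgn and Igfbp2, was found in KO MEST mouse 2. WT MEST mouse 2 held the lowest value of Fmod, Ogn and Slc22a6.

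**Figure D1:**
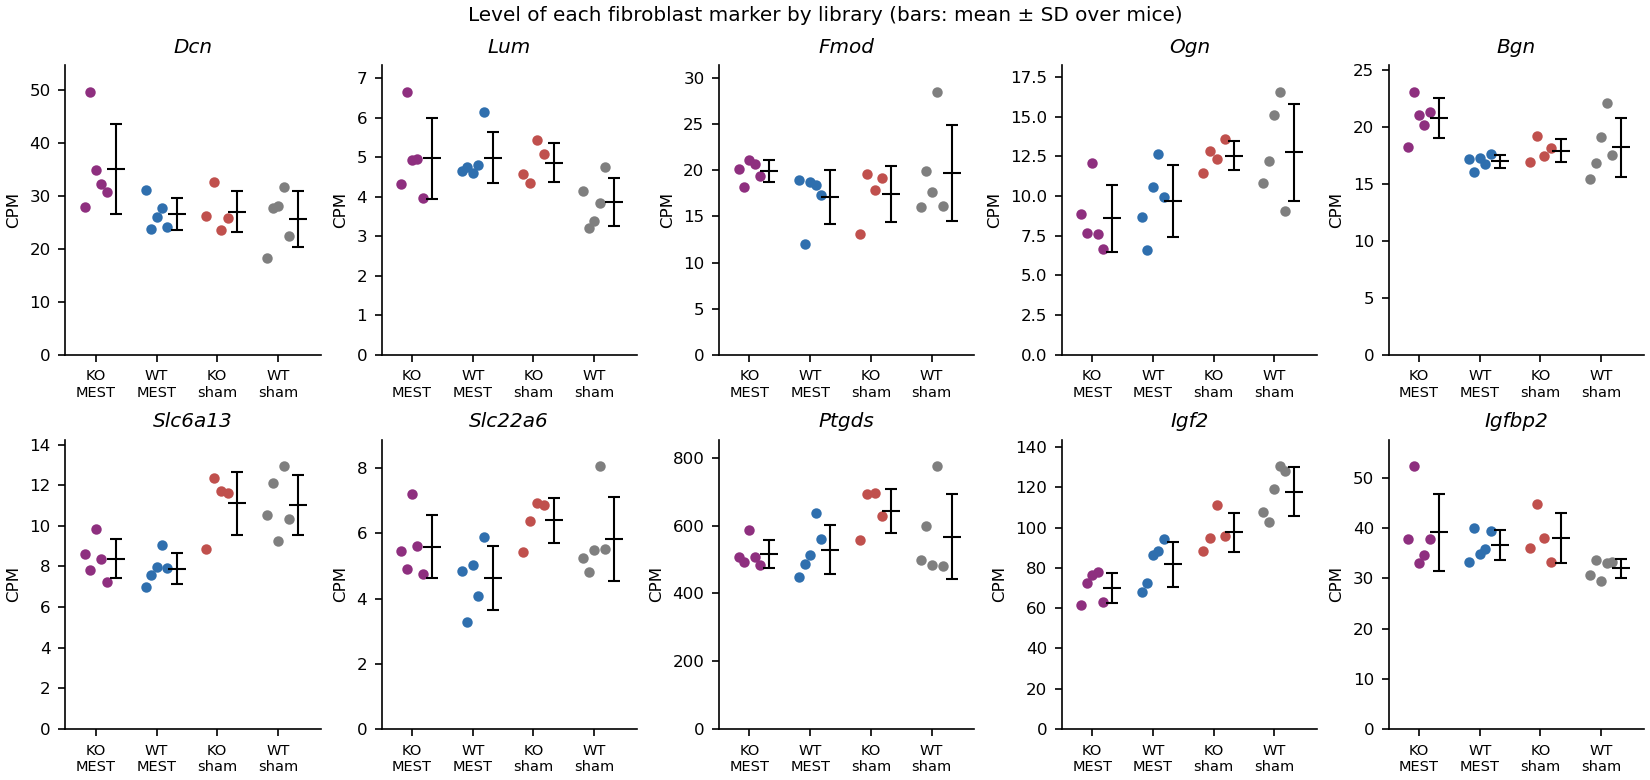
CPM of the 10 markers (y axes, from 0) in the KO MEST, WT MEST, KO sham and WT sham libraries. Each point is 1 mouse in order of its number, and bars give the mean ± SD. Igf2 and Slc6a13 sit lower in the MEST groups, and Bgn is higher in KO MEST (18.2 to 23.1 CPM) than in WT MEST mice (16.1 to 17.6 CPM).

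A fibroblast index was formed for each library as the mean over the 10 markers of log2(CPM + 0.1), each centred on its mean over the 19 libraries. The index was -0.0915, 0.0887, 0.122, -0.0336 and -0.161 in KO MEST mice 1 to 5, and -0.156, -0.301, -0.0699, -0.00817 and 0.00753 in WT MEST mice 1 to 5. In KO sham mice 2 to 5 it was -0.0670, 0.193, 0.150 and 0.124, and in WT sham mice 1 to 5 it was -0.115, 0.0111, 0.00214, 0.342 and -0.0372. All groups overlapped, and WT sham mouse 4 stood above every other library.

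The mean index was 0.0999 ± 0.115 in KO sham and 0.0406 ± 0.175 in WT sham mice, a difference of 0.06 on the log2 scale, and -0.0151 ± 0.120 in KO MEST and -0.105 ± 0.127 in WT MEST mice, a difference of 0.09. MEST less sham was -0.15 in WT and -0.12 in KO mice. The SD between mice of a group was 0.138, pooled over the groups. The index is a description and was not tested, because the markers were listed with results of these data known. Without WT sham mouse 4 the differences that involve WT sham were 0.13 for KO sham over WT sham and -0.07 for WT MEST over WT sham. Within groups, the index had a Pearson r of -0.0126 with the number of reads and -0.0884 with age over the 19 libraries. Ages within a group spanned little, such as 15.9 to 16.3 weeks in WT sham mice. The r with age therefore cannot tell about age differences between groups.

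**Figure D2:**
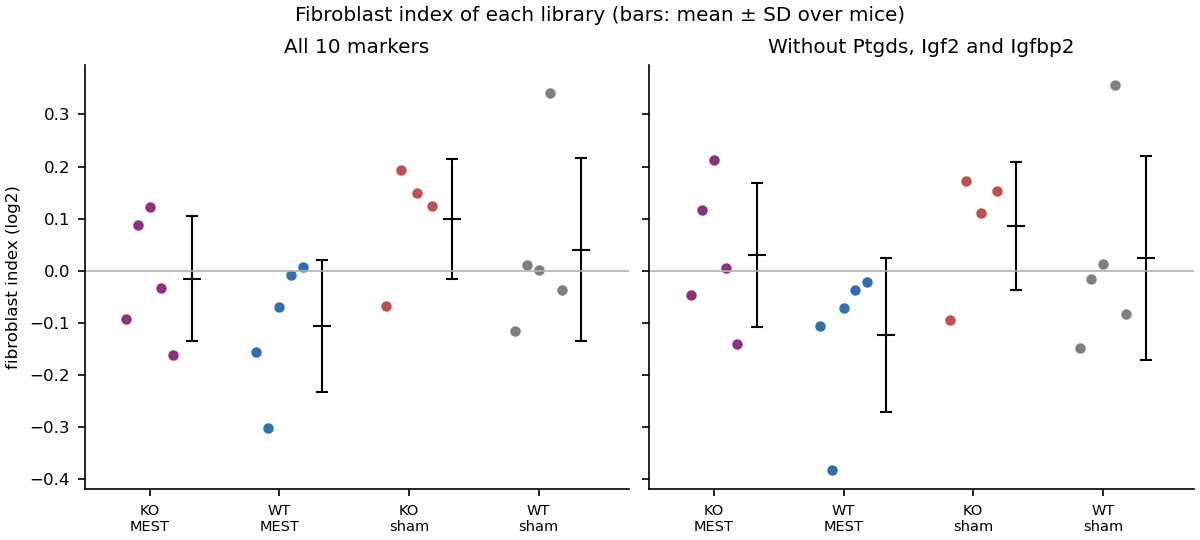
Fibroblast index (log2 scale, y axis) of each library for all 10 markers and for the 7 markers other than Ptgds, Igf2 and Igfbp2. Points are mice and bars the mean ± SD. All 4 groups overlap, and WT sham mouse 4 has the highest index at 0.342.

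Each marker was then compared between groups with limma over all genes tested, and all 10 markers passed the filter on low values in every comparison. In KO sham over WT sham mice, 1 of 10 markers passed (Igf2, lower), where 15.4% of the 16182 genes tested did so (8.58% higher and 6.83% lower). No marker's groups were free of overlap in this comparison, against 16.8% of all genes. Between KO MEST and WT MEST, 1 of 10 passed (Bgn, higher), against 9.86% of 16061 genes (4.94% higher and 4.92% lower). In WT MEST over WT sham, Igf2 and Slc6a13 were lower and Igfbp2 higher, 3 of 10, against 24.4% of 16080 genes (12.3% higher and 12.2% lower). Between KO MEST and KO sham, 1 of 10 passed (Igf2, lower), against 1.36% of 16147 genes (0.762% higher and 0.601% lower). No marker passed for the difference of the MEST effects between genotypes, for which 18.5% of 16596 genes passed (8.85% higher and 9.68% lower). In that test limma gave 1 marker at an unadjusted p under 0.05, edgeR 0 and DESeq2 1 that passed.

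The count was also taken without the libraries that stood apart. Without WT sham mouse 4, 1 marker passed in KO sham over WT sham, which was then Ptgds and not Igf2, and 3 passed in WT MEST over WT sham. Of all genes, 2068 of 16092 and 3491 of 16187 passed in these comparisons. Without KO MEST mouse 2, none of the markers passed in either comparison of KO MEST mice (limma, 4 at an unadjusted p under 0.05 against WT MEST and 5 against KO sham). The calls over all genes also fell, to 785 of 16146 against WT MEST and 34 of 16061 against KO sham. Without WT MEST mouse 2, 1 marker passed in KO MEST over WT MEST and 2 in WT MEST over WT sham, against 1533 of 16144 and 3557 of 16206 genes.

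The median log2 fold change of the 10 markers lay close to 0 in each comparison. It was 0.05 in KO sham over WT sham (all genes tested, -0.01) and 0.08 in KO MEST over WT MEST (all genes, -0.01). It was -0.14 in WT MEST over WT sham (all genes, -0.00398) and -0.09 in KO MEST over KO sham (all genes, -0.01). The largest size of a change was 0.57 on the log2 scale, so that no marker reached a 2-fold change.

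The comparisons of MEST with sham in the WT and in the KO mice share no library. The log2 fold changes of 5 markers, Igf2, Slc6a13, Slc22a6, Ogn and Ptgds, were below 0 in both, and those of Dcn, Lum and Igfbp2 were above 0 in both. Fmod and Bgn had opposite signs. The markers thus did not all go one way, and most of the changes did not pass the test.

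**Figure D3:**
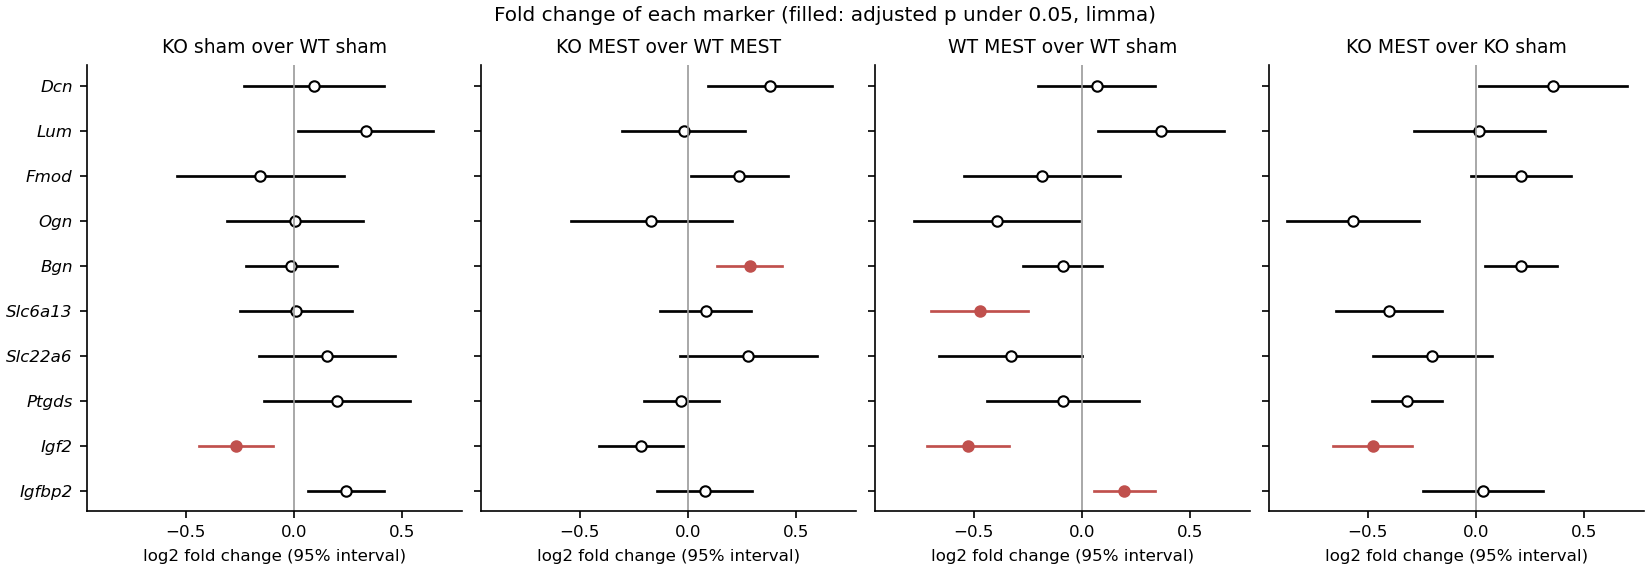
Log2 fold change (x axis) with its 95% interval for each marker in the 4 comparisons. Filled red points passed at an adjusted p under 0.05 (limma, Benjamini-Hochberg) and open points did not. Igf2 lies below 0 in all 4 panels and passed in 3 of them.

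Igf2 encodes insulin-like growth factor 2, a secreted growth factor. The gene lies at chr7:142650766-142666816 on the minus strand (GRCm38, GENCODE vM21). It was at 61.7, 72.2, 76.2, 77.8 and 62.9 CPM in KO MEST mice 1 to 5, against 88.5, 94.9, 111.3, 95.9 CPM in KO sham mice 2 to 5. In WT MEST mice 1 to 5 it was at 68.1, 72.2, 86.3, 88.3 and 94.3 CPM, against 107.9, 102.9, 119.1, 130.6 and 127.9 CPM in WT sham mice. The MEST and sham groups did not overlap in either genotype, which was also so for 7.78% of all genes in the KO mice and for 16.7% in the WT mice.

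Igf2 fell to 81.8 ± 11.2 CPM in WT MEST mice, against 117.7 ± 12.1 CPM in WT sham mice (log2 fold change -0.53, 95% interval -0.72 to -0.34, adjusted p = 0.000448), and it passed in all 20 alternatives. It fell to 70.2 ± 7.45 CPM in KO MEST mice, against 97.7 ± 9.68 CPM in KO sham mice (-0.48, -0.66 to -0.30, adjusted p = 0.0253), and it passed in 12 of 19 alternatives. It was lost for Igf2 without a filter (adjusted p = 0.0513) and without KO MEST mouse 1, 2 or 5 or KO sham mouse 2, 4 or 5, with adjusted p of up to 0.0696. The 2 effects differed by 0.05 (interval -0.23 to 0.33, adjusted p = 0.845).

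Between genotypes Igf2 was lower in KO mice. The change was -0.27 in KO sham over WT sham (interval -0.44 to -0.10, adjusted p = 0.0337), with overlapping groups, and it held in 10 of 19 alternatives. The call of Igf2 was lost without KO sham mouse 2, 3 or 5 or WT sham mouse 3, 4 or 5, with adjusted p of up to 0.111 and, without WT sham mouse 4, of 0.0845. It was also lost for Igf2 without a filter (0.0619), with edgeR (0.0552) and with all 19 libraries in 1 fit (0.0602). Among MEST mice the change of Igf2 in KO over WT was -0.22 (-0.41 to -0.02) and did not pass (adjusted p = 0.143). Its exons share 62.8% of their length with Gm49394, an overlapping gene on the same strand that the tables do not list, and 1.71% with the antisense gene Igf2os. The strand setting of the counting was not given in the sources used here, so these sources of reads cannot be told apart.

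Igfbp2 encodes a secreted protein that binds insulin-like growth factors (chr1:72824503-72852474, plus strand). It was at 33.2, 40.1, 34.9, 35.9 and 39.4 CPM in WT MEST mice 1 to 5, against 30.6, 33.7, 29.4, 33.1 and 33.3 CPM in WT sham mice. The groups touched, since the lowest WT MEST library was below the highest WT sham ones. Igfbp2 rose to 36.7 ± 2.97 CPM in WT MEST mice, against 32.0 ± 1.90 CPM in WT sham mice (log2 fold change 0.20, interval 0.05 to 0.34, adjusted p = 0.0390), and this passed in 13 of 20 alternatives. The call of Igfbp2 was lost without WT MEST mouse 2, 4 or 5 or WT sham mouse 1 or 3, with adjusted p of up to 0.105, with all 19 libraries in 1 fit (0.155) and without a filter (0.0531).

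In the KO mice Igfbp2 was at 37.9, 52.4, 33.1, 34.7 and 37.8 CPM after MEST, against 36.1, 44.8, 38.0 and 33.2 CPM in sham mice. KO MEST mouse 2 was far above the others, and the change was 0.03 (interval -0.25 to 0.31, adjusted p = 0.933). In KO sham over WT sham the change was 0.24 (0.06 to 0.42) with an adjusted p of 0.0630, and in KO MEST over WT MEST it was 0.08 (adjusted p = 0.682). Igfbp2 passed in KO sham over WT sham without KO sham mouse 5 (0.30, adjusted p = 0.0339), with edgeR (0.0424) and with DESeq2 (0.0432).

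Of 17 other genes of insulin-like growth factor signalling, 14 were tested. In WT MEST over WT sham, Igf1r, the receptor (0.25, adjusted p = 0.00966), and the binding protein Igfbp7 (0.24, adjusted p = 0.0366) were higher and Igfbp5 was lower (-0.23, adjusted p = 0.00491). In KO sham over WT sham Igfbp5 was lower (-0.26, adjusted p = 0.00831), and in KO MEST over WT MEST Insr, the insulin receptor, was lower (-0.24, adjusted p = 0.0380). None of the 14 passed in KO MEST over KO sham (limma, 1 at an unadjusted p under 0.05), where 1.36% of all genes did. Of all genes, 12.3% were higher and 12.2% lower in WT MEST over WT sham. In KO sham over WT sham 6.83% were lower, and in KO MEST over WT MEST 4.92%.

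Slc6a13 encodes a transporter of GABA and taurine that marks the meninges (chr6:121300227-121337733, plus strand). It was at 6.99, 7.57, 7.95, 9.06 and 7.91 CPM in WT MEST mice 1 to 5, against 10.54, 12.1, 9.25, 12.95 and 10.3 CPM in WT sham mice. Every WT MEST library was below every WT sham library, a separation found for 16.7% of all genes. Slc6a13 fell to 7.90 ± 0.757 CPM in WT MEST mice, against 11.04 ± 1.48 CPM in WT sham mice (log2 fold change -0.47, interval -0.70 to -0.25, adjusted p = 0.00260), and it passed in all 20 alternatives.

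In the KO mice Slc6a13 was at 8.60, 7.83, 9.83, 8.35 and 7.25 CPM after MEST, against 8.84, 12.3, 11.7 and 11.6 CPM in sham mice. KO sham mouse 2 lay among the KO MEST values and the other 3 above them. The change was -0.40 (interval -0.65 to -0.16) with an adjusted p of 0.0931, though Slc6a13 passed with DESeq2 (0.0257). This change differed from that in WT mice by 0.07 (-0.25 to 0.40, adjusted p = 0.813). Between genotypes Slc6a13 was at 0.01 (-0.25 to 0.27) in sham and 0.08 (-0.13 to 0.29) in MEST mice on the log2 scale, with adjusted p of 0.971 and 0.651.

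Slc22a6 encodes the organic anion transporter OAT1 (chr19:8618039-8628299, plus strand), which clears organic anions from the fluid around the brain. It was at 5.45, 4.92, 7.21, 5.62 and 4.75 CPM in KO MEST mice and 4.83, 3.28, 5.04, 4.09 and 5.89 CPM in WT MEST mice. It was at 5.43, 6.39, 6.93 and 6.86 CPM in KO sham mice and 5.24, 4.81, 5.48, 8.07 and 5.52 CPM in WT sham mice. All groups overlapped, and no change of Slc22a6 passed. The changes were -0.33 (interval -0.66 to 0.00, adjusted p = 0.143) in WT MEST over WT sham, -0.20 (adjusted p = 0.442) in KO MEST over KO sham, 0.28 (adjusted p = 0.244) in KO MEST over WT MEST and 0.15 (adjusted p = 0.547) in KO sham over WT sham.

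Of 11 relatives of these transporters, all tested, none passed in KO sham over WT sham or in KO MEST over KO sham (limma, 2 and 3 at an unadjusted p under 0.05). Of all genes, 15.4% and 1.36% passed there. In WT MEST over WT sham, Slc22a5, the carnitine transporter (0.29, adjusted p = 0.0254), and Slc6a8, the creatine transporter (0.16, adjusted p = 0.0395), were higher and Slc6a20a, a transporter of proline and related amino acids, was lower (-0.39, adjusted p = 0.0181). Between KO MEST and WT MEST mice Slc22a5 was lower (-0.34, adjusted p = 0.0155). Of all genes, 12.3% were higher and 12.2% lower in WT MEST over WT sham. In KO MEST over WT MEST 4.92% were lower.

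Ptgds encodes lipocalin-type prostaglandin D synthase, which makes prostaglandin D2 and is secreted into cerebrospinal fluid (chr2:25466709-25470046, minus strand). It was at 507, 492, 587, 508 and 482 CPM in KO MEST mice, against 557, 693, 695 and 629 CPM in KO sham mice. KO MEST mouse 3 lay above the lowest KO sham mouse, and otherwise the groups were apart. Ptgds averaged 515 ± 41.4 CPM in KO MEST and 643 ± 65.3 CPM in KO sham mice (log2 fold change -0.32, interval -0.48 to -0.16), with an adjusted p of 0.0568 that did not pass. Ptgds passed without KO MEST mouse 3 (-0.37, adjusted p = 0.0480) and with DESeq2 (0.0125).

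In the WT mice Ptgds was at 447, 487, 513, 637 and 562 CPM after MEST, against 500.0, 598, 484, 777 and 481 CPM in sham mice. These groups overlapped throughout, with a change of -0.09 (interval -0.44 to 0.26, adjusted p = 0.736). KO sham over WT sham was 0.20 (-0.14 to 0.54, adjusted p = 0.427). This value of Ptgds rests on WT sham mouse 4: without it the change was 0.32 with an adjusted p of 0.0238. KO MEST over WT MEST was -0.03 (-0.20 to 0.14, adjusted p = 0.846).

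Markers of other cells that make Ptgds were measured beside it. Of 12 oligodendrocyte markers, 5 were lower and none higher in KO MEST over KO sham (0.601% of all genes were lower), and their sum was 6599 to 7179 CPM in KO MEST and 7368 to 8046 CPM in KO sham mice. Of the 12, 7 were lower in KO MEST over WT MEST (4.92% of all genes), with sums of 6599 to 7179 and 6892 to 9355 CPM. The 14 choroid plexus genes all had log2 fold changes below 0 in KO MEST over KO sham, with a median of -0.31 and none passing (limma, 6 at an unadjusted p under 0.05), and their sum was 1076 to 1502 CPM in KO MEST and 1233 to 1927 CPM in KO sham mice. They were also all below 0 in KO MEST over WT MEST, with a median of -0.40 and 2 passing as lower, Kl and Slc4a5, and sums of 1076 to 1502 CPM in KO MEST and 1155 to 1985 CPM in WT MEST mice. No gene of either list was at 0 in any library. In WT MEST over WT sham, 2 oligodendrocyte genes were higher and 2 lower, against 12.3% and 12.2% of all genes. Their median log2 fold change was 0.08. Of the choroid plexus genes, 3 were above 0 and 11 below 0 in that comparison, with a median of -0.07. None of them passed there (limma, 0 at an unadjusted p under 0.05). The part of oligodendrocytes and choroid plexus in the values of Ptgds, Igf2 and Igfbp2 was not tested.

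Of 8 other genes of prostaglandin D2 synthesis and signalling, 6 were tested. Cbr1, a carbonyl reductase, was higher in WT MEST over WT sham (0.37, adjusted p = 0.000119), as was Ptgs1, a cyclooxygenase (0.35, adjusted p = 0.0147). In KO sham over WT sham Cbr1 was higher (0.36, adjusted p = 0.00398) and Ptgs2, the inducible cyclooxygenase, lower (-0.33, adjusted p = 0.0449). None of the 6 passed in KO MEST over WT MEST or in KO MEST over KO sham (limma, 0 and 1 at an unadjusted p under 0.05). Of all genes, 9.86% and 1.36% passed there. In WT MEST over WT sham 12.3% of all genes were higher. In KO sham over WT sham 8.58% were higher and 6.83% lower.

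The remaining 5 markers encode small leucine-rich proteoglycans, secreted proteins of the extracellular matrix, most of which bind collagen fibrils or growth factors. Bgn encodes biglycan (chrX:73483602-73495933, plus strand). It was at 18.2, 23.1, 21.1, 20.2 and 21.3 CPM in KO MEST mice, against 17.1, 16.1, 17.3, 16.8 and 17.6 CPM in WT MEST mice. Every KO MEST library was above every WT MEST library, a separation found for 8.52% of all genes.

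Bgn rose to 20.8 ± 1.78 CPM in KO MEST mice, against 17.0 ± 0.588 CPM in WT MEST mice (log2 fold change 0.28, interval 0.14 to 0.43, adjusted p = 0.0202). Bgn passed in 19 of 20 alternatives, the exception being the fit without KO MEST mouse 2 (0.25, adjusted p = 0.0613). Sham mice of both genotypes overlapped, at 16.9, 19.2, 17.4 and 18.2 CPM in KO sham and 15.4, 16.8, 19.2, 22.1 and 17.5 CPM in WT sham mice, a change of -0.01 (-0.22 to 0.20, adjusted p = 0.951). The log2 fold change of Bgn was 0.21 (adjusted p = 0.177) in KO MEST over KO sham and -0.09 (adjusted p = 0.508) in WT MEST over WT sham. The difference of these effects was 0.30 (interval 0.05 to 0.54), which did not pass (adjusted p = 0.0861). It passed for Bgn with DESeq2 (adjusted p = 0.0440), without KO MEST mouse 1 (0.0489) and without WT sham mouse 1 (0.0351).

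Dcn encodes decorin, which binds collagen (chr10:97479609-97518143, plus strand). It was at 27.9, 49.7, 34.9, 32.2 and 30.7 CPM in KO MEST mice, against 31.2, 23.7, 26.0, 27.6 and 24.1 CPM in WT MEST mice. KO MEST mouse 2 was the highest library, and WT MEST mouse 1 overlapped the KO MEST values. The change of Dcn was 0.38 (interval 0.09 to 0.67, adjusted p = 0.0869) and did not pass. It passed for Dcn with DESeq2 (adjusted p = 0.0159) and without KO MEST mouse 1 (0.0419). It was 0.35 (0.01 to 0.70, adjusted p = 0.259) in KO MEST over KO sham, with KO sham mice at 26.3, 32.5, 23.6 and 25.8 CPM. WT sham mice were at 18.3, 27.7, 28.1, 31.6 and 22.5 CPM, and neither KO sham over WT sham (0.09, adjusted p = 0.735) nor WT MEST over WT sham (0.07, adjusted p = 0.749) passed.

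Ogn encodes osteoglycin, also called mimecan (chr13:49608046-49624501, plus strand). It was at 8.88, 7.65, 12.1, 7.62 and 6.69 CPM in KO MEST mice, against 11.4, 12.8, 12.3 and 13.6 CPM in KO sham mice. Only KO MEST mouse 3 reached the KO sham values. The change of Ogn was -0.57 (interval -0.88 to -0.27), the largest of the markers in size, with an adjusted p of 0.0686 that did not pass. Ogn passed without KO MEST mouse 3 (-0.70, adjusted p = 0.0186) and with DESeq2 (0.0126).

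In the WT mice Ogn was at 8.67, 6.59, 10.6, 12.7 and 9.92 CPM after MEST, against 10.9, 12.2, 15.1, 16.6 and 9.07 CPM in sham mice. The groups overlapped, with a change of -0.39 (interval -0.78 to -0.01, adjusted p = 0.125). It passed for Ogn without WT MEST mouse 4 (adjusted p = 0.0476), without WT sham mouse 5 (0.0365) and with a replicate block (0.0213). The changes of Ogn between genotypes were 0.01 (adjusted p = 0.983) in sham and -0.17 (adjusted p = 0.577) in MEST mice.

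Fmod encodes fibromodulin, a regulator of collagen fibril assembly (chr1:134037254-134048277, plus strand). It was at 20.1, 18.2, 21.1, 20.7 and 19.4 CPM in KO MEST mice and 18.9, 12.0, 18.8, 18.4 and 17.3 CPM in WT MEST mice. It was at 13.1, 19.7, 17.9 and 19.2 CPM in KO sham mice and 16.1, 19.9, 17.7, 28.5 and 16.1 CPM in WT sham mice. WT MEST mouse 2 was low and WT sham mouse 4 high, and all groups overlapped. The changes of Fmod ranged from -0.18 in WT MEST over WT sham (adjusted p = 0.468) to 0.24 in KO MEST over WT MEST (interval 0.01 to 0.46, adjusted p = 0.160), and none passed.

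Lum encodes lumican, a keratan sulfate proteoglycan of collagenous tissue (chr10:97565128-97572703, plus strand). It was at 4.33, 6.66, 4.94, 4.95 and 3.96 CPM in KO MEST mice and 4.64, 4.75, 4.60, 4.81 and 6.13 CPM in WT MEST mice. It was at 4.58, 4.34, 5.43 and 5.08 CPM in KO sham mice and 4.15, 3.22, 3.37, 3.83 and 4.75 CPM in WT sham mice. WT sham mice were the lowest group, though 2 of them overlapped the others. The changes of Lum were 0.36 in WT MEST over WT sham (interval 0.07 to 0.66, adjusted p = 0.0631) and 0.33 in KO sham over WT sham (0.02 to 0.64, adjusted p = 0.147), and neither passed. Lum passed in WT MEST over WT sham without WT sham mouse 5 (0.44, adjusted p = 0.0337) and with DESeq2 (0.0475). Its values were 0.01 (adjusted p = 0.973) in KO MEST over KO sham and -0.02 (adjusted p = 0.951) in KO MEST over WT MEST.

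Of 13 other genes of this proteoglycan family, 10 were tested. Prelp, which encodes a proteoglycan of connective tissue, was lower in WT MEST over WT sham (-0.51, adjusted p = 0.00180) and in KO sham over WT sham (-0.34, adjusted p = 0.0163). Podn, which encodes podocan, was higher in KO MEST over WT MEST (0.57, adjusted p = 0.0185). None of the 10 passed in KO MEST over KO sham (limma, 2 at an unadjusted p under 0.05), where 1.36% of all genes did. Of all genes, 12.2% were lower in WT MEST over WT sham and 6.83% in KO sham over WT sham. In KO MEST over WT MEST 4.94% were higher.

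Among mice of the same group the markers varied together only in part. Over the 45 pairs of markers, the Pearson r of their deviations from the group means had a median of 0.40 over the 19 libraries, and 40 were above 0. The points share library depth and tissue composition, and r is given as a description. Fmod, Ogn, Slc6a13, Slc22a6 and Ptgds formed a set with r of 0.48 to 0.87, the highest being between Slc6a13 and Ptgds. Dcn and Bgn varied with each other (r = 0.77) and less with that set.

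Lum and Igfbp2 hardly followed the mean of the other markers. Single pairs were higher, with r of 0.57 for Lum with Igf2 and 0.43 for Igfbp2 with Dcn. The r of each marker with the mean of the other 9 was 0.76 for Ptgds, 0.72 for Fmod, 0.69 for Bgn, 0.67 for Slc22a6, 0.63 for Slc6a13, 0.60 for Ogn and Igf2, 0.43 for Dcn, 0.14 for Lum and 0.06 for Igfbp2. Without WT sham mouse 4, a setting chosen after seeing the data, the median r over the pairs was 0.26, and r ran from 0.29 to 0.89 within the set of 5.

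**Figure D4:**
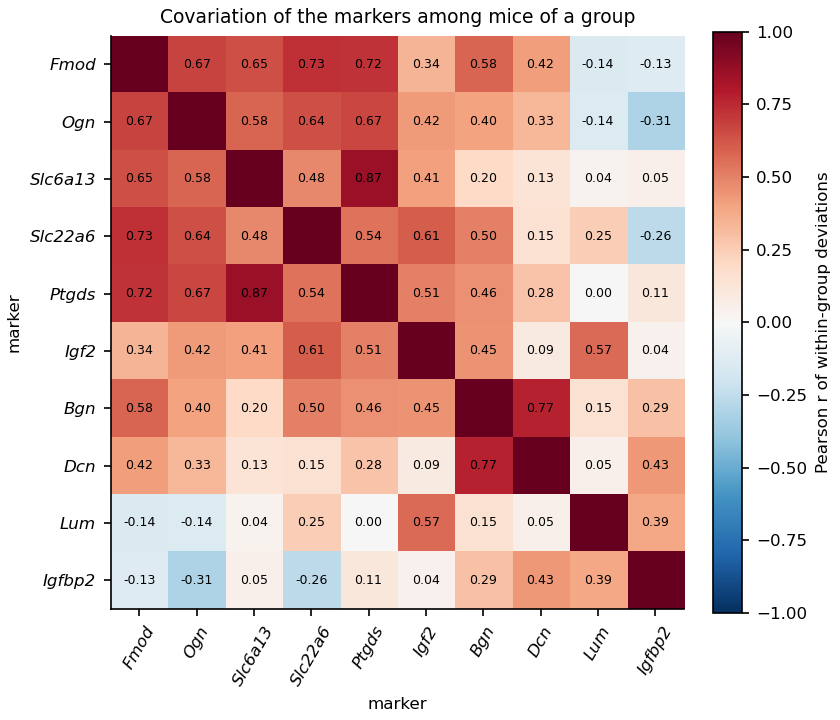
Pearson r (colour and number) between the within-group deviations of log2(CPM + 0.1) of each pair of markers over the 19 libraries. Fmod, Ogn, Slc6a13, Slc22a6 and Ptgds form a block of r from 0.48 to 0.87, and Lum and Igfbp2 fall outside it.

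Other genes of the same fibroblasts were set beside the index. Of 25 listed leptomeningeal and perivascular fibroblast genes, 22 had an r above 0 with the index within groups and 12 an r above 0.5, led by Crabp2 (0.74), Serping1 (0.73), Mgp (0.70) and Gjb2 (0.63). Without WT sham mouse 4 these numbers were 19 and 8. No share over all genes is given beside them, so these counts are a description. The mean of the 25 genes had an r of 0.70 with the index (0.58 without that mouse), against -0.57 for 8 neuron genes (-0.46 without that mouse), -0.40 for 12 oligodendrocyte genes (-0.55), -0.23 for 14 choroid plexus genes (-0.02) and -0.03 for 11 mural cell genes (-0.28). Values above 0 were found for border macrophages (0.47, and 0.27 without that mouse), astrocytes (0.48 and 0.11), endothelial cells (0.21 and -0.17) and the genes of prostaglandin D2 (0.57 and 0.36). The r was 0.41 for the other small leucine-rich proteoglycans (-0.05 without that mouse) and 0.37 for the relatives of the transporters (0.09). It was -0.15 for the other insulin-like growth factor genes (-0.28). Among all 15015 genes with a mean of at least 0.5 CPM, those closest to the index were Laptm4a (r = 0.86), Gnpnat1 (0.84), Prkra (0.83), Yars2 (0.83), Atg12 (0.82), Fam180a (0.82), Ap1s3 (0.81), Tpm4 (0.80), Klf4 (0.80) and 4933424G06Rik (0.79). Without WT sham mouse 4 the r of these genes ran from 0.65 for 4933424G06Rik to 0.90 for Prkra.

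**Figure D5:**
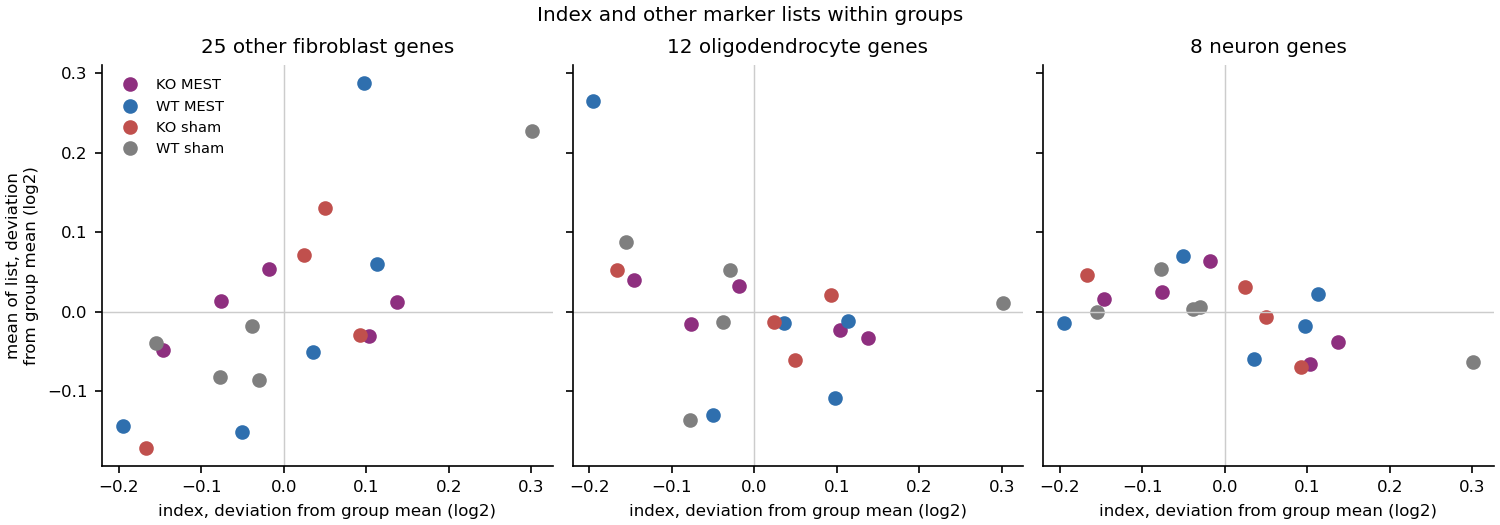
Deviation of the fibroblast index from its group mean (x axis, log2) against that of the mean of 25 other fibroblast genes, 12 oligodendrocyte genes and 8 neuron genes (y axes, log2). Each point is 1 mouse and colours are the 4 groups. The r is 0.70 for the fibroblast genes, -0.40 for the oligodendrocyte genes and -0.57 for the neuron genes.

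Between groups the 25 other fibroblast genes went in both directions, and some changed more than any of the 10 markers. In KO MEST over KO sham, 1 of the 25 was higher and none lower, against 0.762% and 0.601% of all genes. That gene was Col1a1, the alpha 1 chain of type I collagen, at 15.03, 14.1, 11.7, 12.7 and 14.6 CPM in KO MEST mice, against 5.08, 5.14, 8.28 and 7.36 CPM in KO sham mice. The groups did not overlap, which was also so for 7.78% of all genes. Col1a1 rose to 13.6 ± 1.39 CPM in KO MEST mice, against 6.46 ± 1.61 CPM in KO sham mice (log2 fold change 1.09, interval 0.78 to 1.40, adjusted p = 0.00555), and passed in all 19 alternatives.

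In WT MEST over WT sham, 5 of the 25 were higher and 4 lower, against 12.3% and 12.2% of all genes. Col1a1 was at 11.1, 10.4, 7.87, 10.9 and 10.7 CPM in WT MEST mice, against 7.56, 5.69, 5.44, 7.87 and 5.26 CPM in WT sham mice (0.68, interval 0.41 to 0.95, adjusted p = 0.000552), and passed in all 20 alternatives. S100a6, which encodes a calcium-binding protein (0.81, adjusted p = 7.94e-06), Nbl1, which encodes a secreted antagonist of bone morphogenetic proteins (0.45, adjusted p = 4.99e-05), Col1a2, the alpha 2 chain (0.34, adjusted p = 0.00640), and Lamc3, a laminin chain (0.39, adjusted p = 0.0295), were also higher. Crabp2, which binds retinoic acid (-0.73, adjusted p = 0.0135), Mgp, which encodes matrix Gla protein (-0.44, adjusted p = 0.00789), and the transporters Slc13a4 (-0.41, adjusted p = 0.0195) and Slc47a1 (-0.83, adjusted p = 0.0366) were lower.

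Of the 25, 4 were higher and none lower in KO MEST over WT MEST, against 4.94% and 4.92% of all genes. Islr, which encodes a secreted immunoglobulin superfamily protein, was at 20.3, 19.9, 18.6, 19.7 and 15.2 CPM in KO MEST mice, against 12.0, 12.9, 14.4, 13.1 and 14.6 CPM in WT MEST mice (0.48, interval 0.29 to 0.66, adjusted p = 0.00434). Crabp2 (0.68, adjusted p = 0.0149), Col1a1 (0.42, adjusted p = 0.0180) and Slc13a3, a dicarboxylate transporter (0.35, adjusted p = 0.0220), were likewise higher. The groups of these 4 genes did not overlap, which was also so for 8.52% of all genes. The difference of the MEST effects of Col1a1 was 0.41 (adjusted p = 0.174) and did not pass.

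In KO sham over WT sham, S100a6 (0.66, adjusted p = 0.00104), Nbl1 (0.43, adjusted p = 0.00133) and Islr (0.32, adjusted p = 0.0461) were higher, and Mgp was lower (-0.30, adjusted p = 0.0475), 4 of 25 against the 15.4% of all genes. The median over the 25 genes was 0.02 in this comparison, 0.16 in KO MEST over WT MEST, -0.02 in WT MEST over WT sham and 0.11 in KO MEST over KO sham.

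Other vessel and border cells were measured beside these values. Of 11 mural cell genes, none passed in KO sham over WT sham or KO MEST over KO sham (limma, 0 and 1 at an unadjusted p under 0.05), while Rgs5, a pericyte gene, was lower in KO MEST over WT MEST (-0.41, adjusted p = 0.00323) and higher in WT MEST over WT sham (0.17, adjusted p = 0.0325). The mural sum was 169 to 196 CPM in KO MEST, 181 to 206 in WT MEST, 191 to 204 in KO sham and 186 to 223 CPM in WT sham mice. Of 12 endothelial genes, 1 was lower in KO MEST over KO sham and 2 in KO MEST over WT MEST, 1 was higher in WT MEST over WT sham, and 3 were higher and 1 lower in KO sham over WT sham. Of 8 border macrophage genes, 1 was higher in KO sham and in WT MEST than in WT sham mice, and none passed elsewhere. Of 12 astrocyte genes, 1 was lower in KO sham over WT sham and 1 in KO MEST over WT MEST, 2 were higher and 2 lower in WT MEST over WT sham, and none passed in KO MEST over KO sham (limma, 4 at an unadjusted p under 0.05). Of all genes, 8.58% were higher and 6.83% lower in KO sham over WT sham, and 12.3% and 12.2% in WT MEST over WT sham. The shares were 4.94% and 4.92% in KO MEST over WT MEST and 0.762% and 0.601% in KO MEST over KO sham. The part of these vessel and border cells and astrocytes in the marker values was not tested.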

How the data were processed

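RNA from the brain blocks of 19 mice was sequenced by the authors with a stranded poly(A) kit. Demultiplexing with bcl2fastq, trimming with Trimmomatic 0.39, removal of ribosomal reads with SortMeRNA, alignment to mm10 with HISAT2 2.2.1, counting with featureCounts of Subread 2.0.3 and testing with DESeq2 1.36.0 are named in the submitters' processing notes or the study's methods. The deposited tables, which the authors made for WT and KO mice separately, give a normalized signal: reads over a size factor that DESeq2 set for the library. They also hold the authors' fold changes and p-values, which were not used. Every signal value came out as a whole number of reads (tolerance 0.01). Gene symbols numbered 24421, and 27 that a spreadsheet had turned into dates, holding no more than 0.384% of any library, were dropped.

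CPM were computed over the total of each library (27.6 to 51.7 M reads), which limits the precision of low genes. Groups followed the labels. The test was limma 3.58.1 (R 4.3.3, trend and robust) on log2(CPM + 0.1), which understates fold changes of low genes, for genes that reached 0.2 CPM in a number of libraries equal to the smaller group, with Benjamini-Hochberg adjusted p under 0.05. Each comparison used its 2 groups, and the difference of the MEST effects all 4. Intervals are 95% intervals of limma. The code was tested on simulated data. Alternatives were TMM and median-of-ratios factors, pseudocounts of 0.5 and 1, no filter, a filter at 1 CPM, edgeR 4.0.16 and DESeq2 1.42.0 on the recovered reads, all 19 libraries in 1 fit, a replicate block, each library left out and the index as a covariate.

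The markers and lists were chosen with earlier results of these data known. All 10 markers are named, with up to 4 genes per direction of each list with the smallest p among those that passed, and the 10 genes closest to the index. Lamc3 falls outside that rule and was named after its values were seen. Gene positions came from GENCODE vM21. Python 3.11.15 with pandas 2.3.3 and numpy 2.4.6 served to read the tables, and matplotlib 3.10.9 to draw the plots.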

Additional observations from a re-analysis of the deposited data

Results flagged for a closer look

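Within each group of 4 or 5 mice, a library was set aside for a closer look when its gap to the nearest other made up most of the range of the group, by Dixon's criterion. This was checked in 140 groups of values, of which chance marks about 1 in 20. Of the markers, Lum was at 6.13 CPM in WT MEST mouse 5 (next highest 4.81), Fmod at 12.0 CPM in WT MEST mouse 2 (next lowest 17.3), Slc22a6 at 8.07 CPM in WT sham mouse 4 (next 5.52), Ptgds at 587 CPM in KO MEST mouse 3 (next 508) and Igfbp2 at 52.4 CPM in KO MEST mouse 2 (next 37.9). The fibroblast index of WT sham mouse 4 was 0.342 (next 0.0111). Of the listed genes, Col1a1 was at 7.87 CPM in WT MEST mouse 3, Col1a2 at 25.9 CPM in KO MEST mouse 2, Igf1r at 63.2 CPM in KO sham mouse 3, S100a6 at 5.12 CPM in WT sham mouse 5, Slc13a3 at 17.4 CPM in WT sham mouse 4 and Slc22a5 at 7.56 CPM in KO MEST mouse 5.

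None of the 10 markers had a MEST effect that differed between genotypes in limma. Several of the listed fibroblast, proteoglycan, prostaglandin and transporter genes had a difference at an adjusted p under 0.05, as did 18.5% of all genes. The effect (KO less WT, log2) was 0.88 for Crabp2, 0.45 for Mgp, 0.42 for Prelp, -0.60 for S100a6, -0.47 for Cbr1 and -0.41 for Slc22a5.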

How the results depend on the processing

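Of the 50 changes of the markers (10 markers in 5 comparisons), 37 kept their sign in every alternative and with each library left out. The count of markers that passed was 0 in KO sham over WT sham without a filter and with all 19 libraries in 1 fit, and 2 with DESeq2, against 1 (edgeR gave 1, Igfbp2 and not Igf2). It was 2 with DESeq2 in KO MEST over WT MEST, against 1. In KO MEST over KO sham it was 0 without a filter and 4 with DESeq2 (Igf2, Ogn, Slc6a13 and Ptgds, all lower), against 1. For the difference of the MEST effects it was 1 with DESeq2 (Bgn), against 0. Testing more genes, as without a filter, raises the adjusted p, and the other causes were not tested. With 1 library left out, the counts ran from 0 to 1 in KO sham over WT sham, 0 to 2 in KO MEST over WT MEST, 2 to 5 in WT MEST over WT sham, 0 to 3 in KO MEST over KO sham and 0 to 1 for the difference.

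Signs turned only for changes near 0. In KO sham over WT sham, Ogn was at -0.00284 with edgeR and -0.0263 with DESeq2, and in KO MEST over WT MEST Lum was at 0.00240 with edgeR and 0.00304 with DESeq2. With 1 library left out, KO sham over WT sham ran from -0.0699 to 0.0604 for Bgn, -0.0224 to 0.17 for Dcn, -0.11 to 0.11 for Ogn and -0.0511 to 0.11 for Slc6a13. KO MEST over WT MEST ran from -0.0325 to 0.13 for Igfbp2, -0.13 to 0.0564 for Lum and -0.0889 to 0.0385 for Ptgds. KO MEST over KO sham ran from -0.0776 to 0.11 for Igfbp2 and -0.0946 to 0.0892 for Lum, and WT MEST over WT sham from -0.0481 to 0.15 for Dcn and -0.16 to 0.0321 for Ptgds. The difference of the MEST effects ran from -0.0126 to 0.12 for Igf2 and -0.0337 to 0.13 for Slc6a13.

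The deviations of same-numbered mice had r of -0.0907 to 0.366 over the pairs of 4 comparisons. An r above 0.1 was found for 1 of 4 pairs in KO MEST over KO sham and 1 of 4 in KO sham over WT sham. In the other comparisons 0 of 5 pairs reached it. The main test used no pairing, and these values cannot tell whether such mice were handled together. A replicate block gave 4 markers in WT MEST over WT sham (Ogn joined), against 3, changed no other call of a marker, and gave KO sham over WT sham changes of -0.0224 for Dcn, -0.0434 for Ogn and -0.00467 for Slc6a13. With the index as a covariate, 2268 of all genes passed in KO sham over WT sham, against 2494 without it. The count was 1312 against 1584 in KO MEST over WT MEST and 3018 against 3929 in WT MEST over WT sham. In KO MEST over KO sham it was 25, against 220 without the covariate. That count was also 55 without a filter, 915 with DESeq2, 510 with all libraries, 105 with the block and 14 to 434 with 1 library left out, and the higher share was 66.4% with median-of-ratios factors, against 55.9%. In KO MEST over WT MEST it was 785 to 1921 with 1 library left out, against 1584.

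The lists of other fibroblast genes, proteoglycans, insulin-like growth factor genes, prostaglandin D2 genes and transporter relatives gave 41 calls, of which 22 passed in every alternative and with each library left out, and 18 were lost without at least 1 library, 10 of them without WT sham mouse 4 and 4 without KO MEST mouse 2. The 25 other fibroblast genes gave 2 calls without a filter in KO sham over WT sham, against 4, and 5 with DESeq2 in KO MEST over KO sham, against 1.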
